A study of Mus musculus with 11 samples.

Results

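Rab genes encode the largest family of small GTPases, and 59 of them were described here, of 21627 protein-coding genes on chromosomes 1 to 19 and X of mm10. The members were the genes whose symbol is Rab followed by a digit, without the Rab11fip, Rab3gap, Rab3il and Rab3ip genes, which encode effectors and regulators, and without Rab5if, whose product is not a GTPase. The choice used symbols and no measured value. Each member was scored for a deposited peak within 1 kb of either gene end, and the other 21568 protein-coding genes gave the background.

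Peaks came from 11 CUT&RUN libraries of mouse tumour-derived cell lines, M00002 and M00001, which the labels tie to 1 mouse each. In CUT&RUN an antibody guides a nuclease to its target, and the DNA cut free there is sequenced. Both lines carried the HA-tagged CRfus1, taken here as the ZFTA-RELA fusion of the series title, and were grown untreated in neural basal medium with bFGF and rhEGF. M00002 gave libraries for HA, IgG, p65, and H3K27ac with the antibodies ac4729 and ac647, and M00001 gave HA, IgG, Cbp, p300, and Rpb1 with S2 and S5. There was 1 library per target and line and no line without the fusion was analysed here, so no value has a replicate error and an effect of the fusion cannot be told apart from any other feature of these lines. The sources used here do not say what drives the fusion in these lines.

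A Rab protein switches between a GDP-bound form in the cytosol and a GTP-bound form on a membrane, where it recruits motors, tethers and coats. Exchange factors load GTP, and GTPase-activating proteins end the cycle. Each Rab is known from particular membranes, so the set of Rab genes in use describes how a cell moves cargo through the Golgi, endosomes, lysosomes, secretory vesicles and cilia. p65 is the product of Rela, Cbp and p300 are acetyltransferases, H3K27ac marks active promoters and enhancers, and Rpb1 is the largest subunit of RNA polymerase II.

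Promoter sequences are shown first, because most member peaks lay at the start of a gene. RefSeq promoters on GRCm38.p6, the assembly behind mm10, were matched for 48 of the 59 members. The first set holds the 250 bases upstream of 5 of the 7 members with HA in both lines, and Rab8a, which had one of the highest HA values of M00002. Capitals mark matches, on either strand, to GGGCGG (the GC box), CCAAT (the NF-Y box), TGANTCA (the AP-1 site) and CCGGAAG (an Ets site). TGACGTCA, TATAAA and the kappaB motif were searched as well.
Rab40c (chr17:25919715-25919964, minus strand): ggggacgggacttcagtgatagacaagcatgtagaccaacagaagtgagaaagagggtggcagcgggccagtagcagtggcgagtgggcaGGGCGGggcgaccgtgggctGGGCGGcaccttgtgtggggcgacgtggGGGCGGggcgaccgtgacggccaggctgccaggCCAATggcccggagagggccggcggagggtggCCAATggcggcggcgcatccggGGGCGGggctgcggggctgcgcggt
Rab3a (chr8:70754453-70754702, plus strand): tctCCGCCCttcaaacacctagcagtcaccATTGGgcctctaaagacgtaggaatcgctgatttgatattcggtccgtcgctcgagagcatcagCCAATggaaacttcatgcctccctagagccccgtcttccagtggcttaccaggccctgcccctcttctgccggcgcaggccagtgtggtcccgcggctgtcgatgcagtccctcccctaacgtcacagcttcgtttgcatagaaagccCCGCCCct
Rab34 (chr11:78188177-78188426, plus strand): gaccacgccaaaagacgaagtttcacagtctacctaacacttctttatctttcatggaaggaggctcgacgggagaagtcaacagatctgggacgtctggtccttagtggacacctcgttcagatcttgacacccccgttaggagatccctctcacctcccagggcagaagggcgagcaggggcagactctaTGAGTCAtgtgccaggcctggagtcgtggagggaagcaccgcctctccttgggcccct
Rab4b (chr7:27178884-27179133, minus strand): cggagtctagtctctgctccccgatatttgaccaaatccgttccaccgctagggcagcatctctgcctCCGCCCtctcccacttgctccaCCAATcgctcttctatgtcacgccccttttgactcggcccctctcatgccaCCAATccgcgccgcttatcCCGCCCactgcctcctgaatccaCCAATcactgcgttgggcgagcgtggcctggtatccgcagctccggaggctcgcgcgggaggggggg
Rab40b (chr11:121388252-121388501, minus strand): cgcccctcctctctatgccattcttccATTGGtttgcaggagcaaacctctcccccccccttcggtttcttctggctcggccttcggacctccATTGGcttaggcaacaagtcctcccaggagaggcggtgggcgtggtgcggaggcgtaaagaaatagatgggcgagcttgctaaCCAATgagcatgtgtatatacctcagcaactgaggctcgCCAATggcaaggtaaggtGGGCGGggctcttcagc
Rab8a (chr8:72160950-72161199, plus strand): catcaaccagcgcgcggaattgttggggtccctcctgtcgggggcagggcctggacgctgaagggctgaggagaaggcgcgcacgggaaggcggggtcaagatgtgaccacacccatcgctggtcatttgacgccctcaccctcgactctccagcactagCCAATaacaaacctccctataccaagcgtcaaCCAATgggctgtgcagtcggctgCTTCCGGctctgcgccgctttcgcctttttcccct
The HA peaks of M00002 covered all 250 bases printed for Rab8a and Rab40b, 248 of those of Rab3a, 212 of Rab4b, 129 of Rab40c and 56 of Rab34. The HA peaks of M00001 covered 164 of the Rab3a bases, 147 of Rab4b, 32 of Rab40b and none of the other 3. The kappaB motif occurred in none of the 6 sequences.

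Rab3b, a close relative of Rab3a, is shown for contrast, since it had no peak in any list. Its upstream sequence holds matches to GGGCGG and to TATAAA (the TATA box), both in capitals.
Rab3b (chr4:108878820-108879069, plus strand): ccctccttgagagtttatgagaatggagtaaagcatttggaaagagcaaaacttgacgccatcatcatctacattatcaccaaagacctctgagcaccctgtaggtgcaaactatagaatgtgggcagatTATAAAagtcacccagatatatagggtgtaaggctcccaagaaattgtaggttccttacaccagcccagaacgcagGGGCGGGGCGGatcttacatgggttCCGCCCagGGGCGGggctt
The Rab3b sequence has 6 CpG dinucleotides and the Rab3a sequence 16. Over the 48 matched members the median was 16 CpGs in 250 bases and 60.6% GC, against 10 CpGs and 55.6% GC over 17225 other promoters. The 15 matched members without a peak within 1 kb of a gene end had a median of 9 CpGs and a range of 3 to 40. Among them Rab6b had 40, and its relative Rab6a, with 5 lists, had 24. They include Rab17 and Rab21, whose searched start lies inside the gene with HA of M00002 within 1 kb of it.

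GGGCGG occurred in 33 of the 48 members (68.8%), against 43.1% of the other promoters. The kappaB motif, bound by NF-kappaB proteins such as p65, occurred in 1 member, Rab28 (2.08%), against 4.01% of the other promoters, and in 0 of the 22 matched members with HA in M00002. Rab28 had HA in M00001, whose peak covered 207 of its 250 bases. The kappaB match lay outside that peak, at the end of the 250 bases nearest the gene. At Rab9, Rab33a, Rab33b and Rab42 the HA peak of M00002 covered 0 of the searched bases. TGANTCA occurred only in Rab34 (2.08%, against 6.24%), CCGGAAG in 3 members (6.25%, against 9.27%), TATAAA in 4 (8.33%, against 12.5%) and TGACGTCA in 2 (4.17%, against 2.00%). CCAAT was added to the search after the sequences had been read. It occurred in 22 members (45.8%, against 36.8%), in 13 of the 22 with HA in M00002, in 7 of the 11 with Rpb1 S2 but no such HA, and in 2 of the 15 without any peak. These are matches of letters in a short window and describe no binding site.

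Rpb1 was the most frequent target at Rab genes. With S2, 39 of 59 members (66.1%, exact 95% interval 52.6 to 77.9) had a peak, against 40.7% of the other genes. With S5, 27 members (45.8%, 32.7 to 59.2) had one, against 20.9%. The S5 difference of 24.9 percentage points was 11.02 with the 2000 peaks of highest fold enrichment. Both intervals lay above the background share. They cover counting error over genes only, members are not replicates, and no test of the difference was made.

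HA of M00002 lay at 26 members (44.1%, 31.2 to 57.6), against 25.3% of the other genes. This difference of 18.8 percentage points was 3.54 with peaks of a −log10 q of 5 or more. It turned to -0.948 with the 2000 peaks of highest fold enrichment, where the share rests on 1 member (1.69%, against 2.64%). HA of M00001 lay at 8 (13.6%, 6.04 to 25.0), against 10.2%, a background share within the interval. HA was found in both lines at 7 members (11.9%, 4.91 to 22.9), against 8.99%, so the shared HA sites were close to the background. p65 lay at 13 members (22.03%, 12.3 to 34.7), against 15.3%.

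H3K27ac with ac4729 lay at 27 members (45.8%, 32.7 to 59.2), against 32.4%, and with ac647 at 9 (15.3%, 7.22 to 26.99), against 13.1%. With both antibodies it lay at 8 (13.6%, 6.04 to 25.0), against 12.1%. The acetyltransferases were rarer. p300 lay at 8 members (13.6%, 6.04 to 25.0), against 6.64%, and Cbp at 5 (8.47%, 2.81 to 18.7), against 3.51%. At least 1 of them lay at 11 (18.6%, 9.69 to 30.9), against 8.77%. The −log10 q of the Cbp peaks was 0.410 at Rab33b and Rab7, 0.965 at Rab43 and Rab4b, and 3.06 at Rab6a. The Cbp share thus rests mostly on peaks with weak q-values. A −log10 q of at least 5 was reached at 0 members for Cbp, against 0.269% of the other genes. For p300 it was reached at 2 members (3.39%, against 1.05%). IgG of M00002, the background library, lay at 1 member, Rab43 (1.69%, 0.0429 to 9.09), against 1.44%. IgG of M00001 lay at 0 members, which allows a share of up to 6.06%, against 0.422%. IgG of either line thus lay at 1 of 59, against 1.79%.

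**Figure D1:**
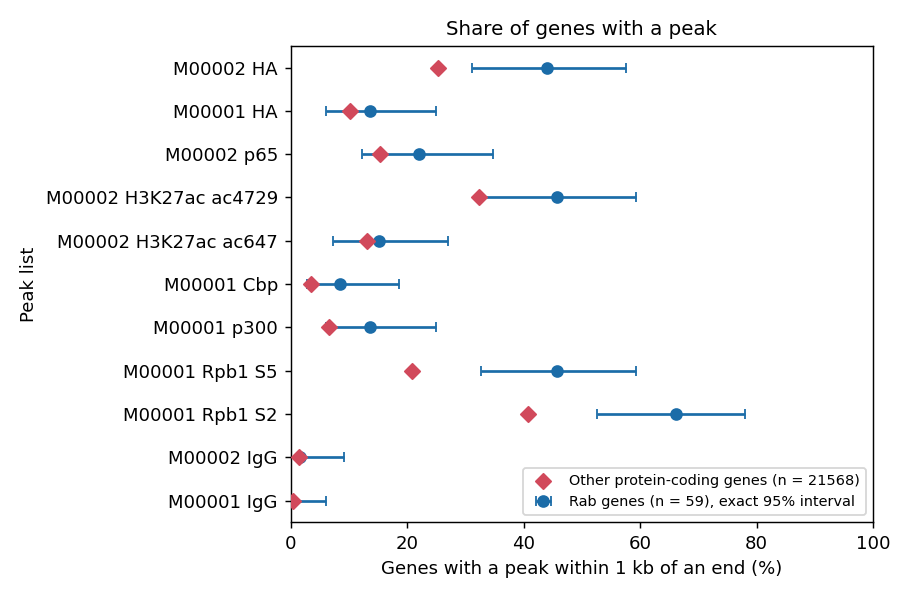
Share of genes with a peak within 1 kb of a gene end (x axis, percent) in each of the 11 peak lists (y axis). Circles with exact 95% intervals stand for the 59 Rab genes and diamonds for the 21568 other protein-coding genes; the intervals of HA of M00002, Rpb1 S5 and Rpb1 S2 lie wholly above the diamonds, and that of ac4729 only just (32.7 against 32.4).

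Counted by gene, the median Rab gene had a peak in 3 of the 9 lists that are not IgG and the median other gene in 1. At least 6 lists were found at 12 members (20.3%, 10.98 to 32.8), against 8.41% of the other genes, and no list at 20 (33.9%, 22.1 to 47.4), against 46.6%. Gene length was also greater in the family, with a median of 23213 bp against 17314 bp. With the other genes weighted to the length classes of the members, their shares were 44.4% for S2 and 27.2% for HA of M00002.

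Every member with a peak in any of the 9 lists had Rpb1 S2, 39 of 39, against 77.1% of the other genes with any peak. Accordingly S2 lay at 26 of 26 members with HA of M00002 (others 79.1%), at 27 of 27 with H3K27ac ac4729 (others 79.1%) and at 27 of 27 with S5 (others 91.6%). In the other direction, S5 lay at 27 of the 39 members with S2 (69.2%, 52.4 to 83.0), against 47%, and at 20 of the 26 with HA of M00002 (76.9%, 56.4 to 91.0), against 50.5%. H3K27ac ac4729 and HA of M00002 shared 19 members, 73.1% of those with HA (others 70.2%) and 70.4% of those with ac4729 (others 54.8%). The members fell into 4 patterns. HA of M00002, ac4729 and S2 were all found at 19. Their peaks need not coincide, and at Rab2a the HA peak overlapped neither ac4729 nor S2. HA and S2 without ac4729 were found at 7, namely Rab2b, Rab33a, Rab37, Rab3d, Rab40b, Rab42 and Rab4b. Rab10, Rab11a, Rab13, Rab24, Rab28, Rab30, Rab31 and Rab7 had ac4729 and S2 without that HA. Rab20, Rab35, Rab36, Rab39 and Rab8b had S2 without either, and of these only Rab20 and Rab35 had S2 alone (3.39% of members, against 7.25% of the other genes).

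Because S2 was frequent, HA was also counted among genes with S2, an alternative chosen after seeing the data. HA of M00002 lay at 26 of the 39 members with S2 (66.7%, 49.8 to 80.9), against 49.1% of the other genes with S2. Among genes with S5 it lay at 20 of 27 members (74.1%, 53.7 to 88.9), against 61.1%. HA of M00001 lay at 8 of 39 (20.5%, 9.30 to 36.5), against 21.8%, and p65 at 13 of 39 (33.3%, 19.1 to 50.2), against 30.5%. S2 and S5 were measured in M00001, so the counts with HA of M00002 set lists of different lines beside each other. Among the 8 members with H3K27ac of both antibodies, HA of both lines lay at 2 (25%, 3.19 to 65.1), against 37.4% of the other such genes. H3K27ac of both antibodies lay at 8 of the 39 members with S2 (20.5%, 9.30 to 36.5), against 24.4%.

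All 13 members with p65 also had HA of M00002, and 0 members had p65 alone, which allows up to 6.06%, against 1.96% of the other genes. The fusion was taken as ZFTA-RELA and p65 is the product of Rela, so both antibodies may detect the same protein. Whether they do was not tested, and shared HA and p65 peaks are not shown to be separate factors. HA of M00002 lay at 7 of the 8 members with HA of M00001 (87.5%, 47.3 to 99.7), against 87.9%, and p300 at 3 of those 8 (37.5%, 8.52 to 75.5), against 29.7%. p65 lay at 13 of 26 members with HA (50%, 29.9 to 70.1), against 52.9%. At the level of peaks, 13 of 33 HA peaks of M00002 at members overlapped p65 (39.4%, 22.9 to 57.9), against 46.7% of those at other genes, and 19 overlapped ac4729 (57.6%, 39.2 to 74.5), against 53.0%. The 8 HA peaks of M00001 at members overlapped HA of M00002 in 6 cases (75%, 34.9 to 96.8), against 79.8%, Rpb1 S2 in 8, against 76.0%, and p65 in 3 (37.5%, 8.52 to 75.5), against 66.9%. No HA peak at a member overlapped an IgG peak.

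**Figure D2:**
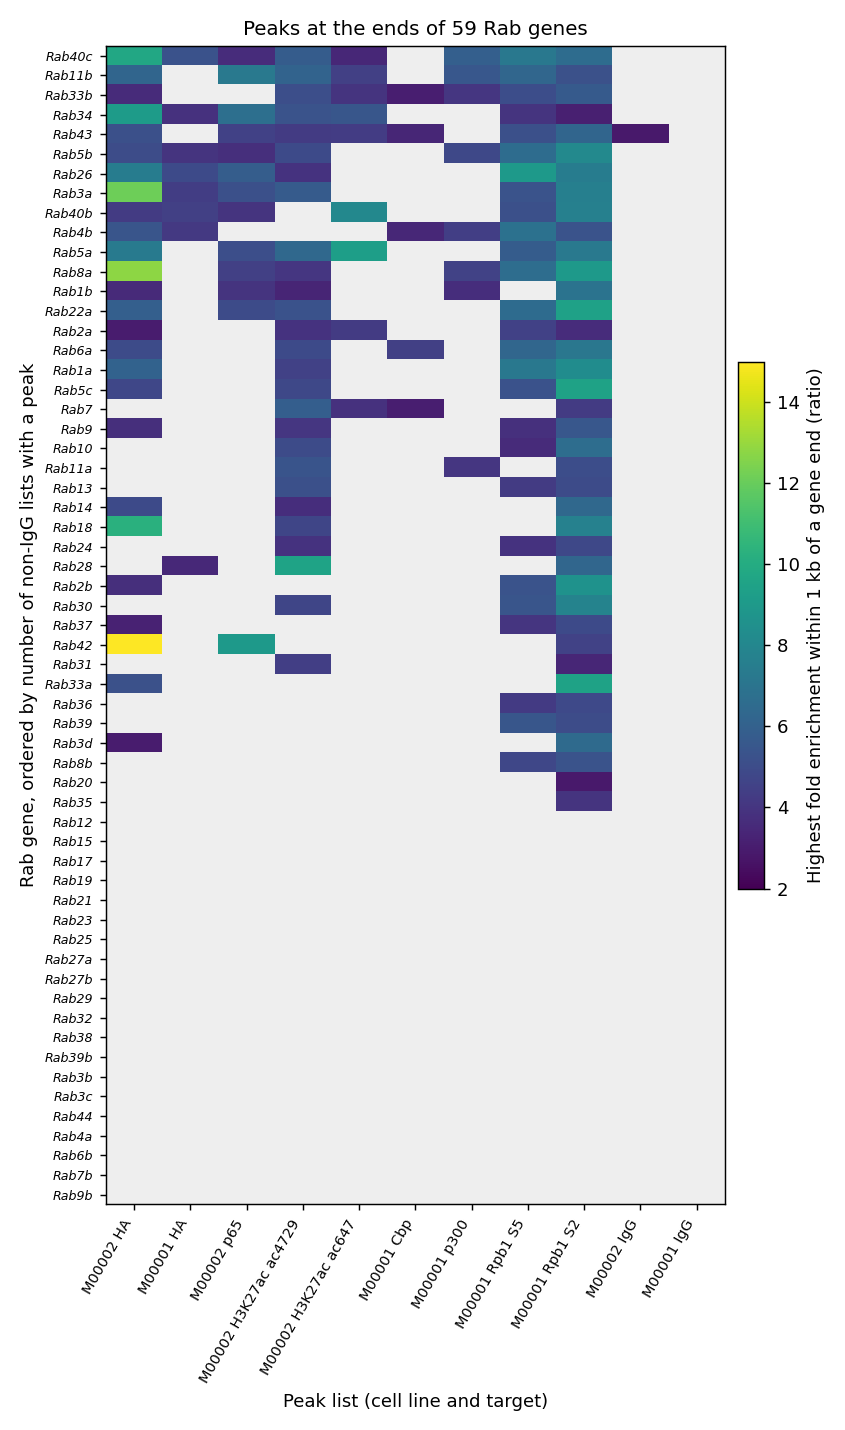
Highest fold enrichment of a peak within 1 kb of a gene end (colour, the authors' ratio, comparable only within a column) for the 59 Rab genes (rows, ordered by number of lists) in each of the 11 lists (columns); grey is no peak. Rab40c has peaks in 8 lists at the top, and the 20 genes at the bottom have none.

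Fold enrichment, the authors' ratio of signal over background at the summit of a peak, ranks genes within a list only. Among genes with a peak, the median member ranked above the middle for polymerase and p300 and below it for HA and p65. The median member fold was 6.28 with S2 (other genes 5.15, percentile of the member median 70.7) and 5.32 with S5 (other genes 4.61, percentile 68.4). It was 5.21 for HA of M00002 (other genes 6.10, percentile 37.3), 4.28 for HA of M00001 (other genes 5.23, percentile 31.4) and 4.96 for p65 (other genes 5.71, percentile 38.3). For p300 it was 4.49 (other genes 4.01, percentile 70.5), for ac4729 4.92 (other genes 4.65, percentile 57.6), for ac647 4.29 (other genes 4.41, percentile 46.7) and for Cbp 3.42 (other genes 3.43, percentile 39.6).

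The q-values were counted in the same lists. In M00002, 10 members had an HA peak with a −log10 q of at least 5, namely Rab42, Rab8a, Rab3a, Rab18, Rab40c, Rab34, Rab26, Rab5a, Rab11b and Rab1a (16.9%, against 13.4% of the other genes), and in M00001 0 did, against 4.40%. Among genes with HA of M00002 these were 38.5% of the members, against 53.1% of the other genes. Below 2 were 7 members in M00002 (Rab1b, Rab2a, Rab2b, Rab33b, Rab37, Rab3d and Rab9) and 3 in M00001 (Rab28, Rab34 and Rab5b). That is 26.9% and 37.5% of the members with HA, against 20.4% and 29.3% of the other genes with HA. For S2, 35 of the 39 members reached 5 (89.7%, against 74.1% of the other genes with S2), and for S5 14 of 27 (51.9%, against 35.0%).

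**Figure D3:**
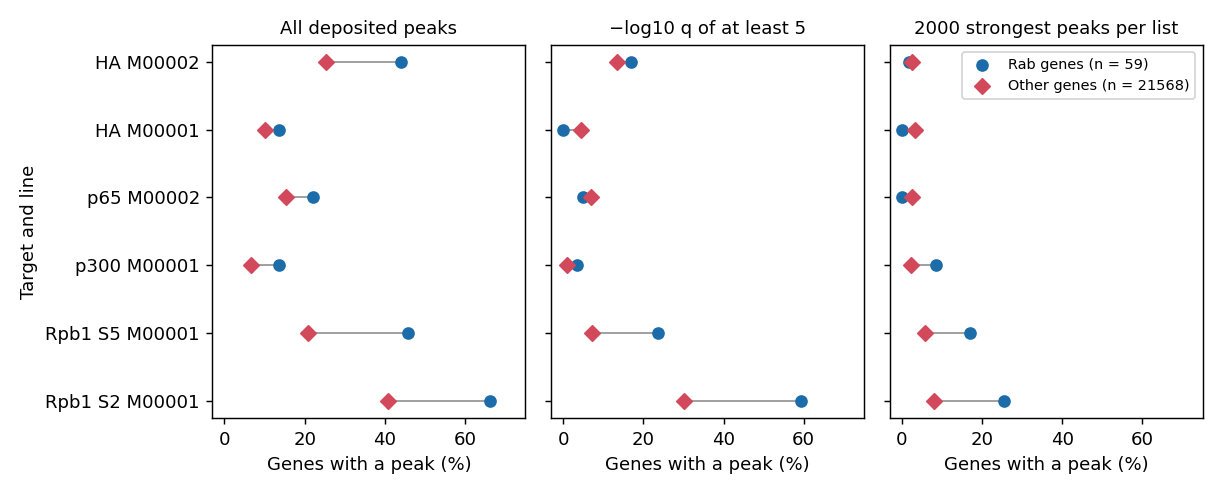
Share of genes with a peak within 1 kb of an end (x axis, percent) for 6 targets (y axis) for all deposited peaks (left), for peaks whose −log10 q is 5 or more (middle) and for the top 2000 peaks per list by fold enrichment (right). Circles are Rab genes and diamonds other genes. The HA share of M00002 in Rab genes goes from above the other genes at the left to below them at the right, where it rests on 1 member. The shares for Rpb1 S2 and S5 stay above the other genes in all 3 panels. The top 2000 peaks are a smaller part of the HA list of M00002 (30680 peaks) than of the S5 list (11032 peaks).

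Most member peaks lay at the gene start, which here is the outer upstream end of the gene record. For some members, such as Rab33a, a RefSeq start lies elsewhere, as given below. Of the 48 members with a known strand, 21 had HA of M00002 at the start and 2 at the other end, against 23.4% and 4.15% of the other genes. S2 lay at the start of 32 and the other end of 2, against 39.6% and 6.03%, and S5 at the start of 22 and the other end of 0, against 20.8% and 2.15%. Both members and other genes had more peaks at the start than at the other end. Counted from the start, with negative values upstream, median summits lay at -42 bp for HA of M00002, -100 bp for HA of M00001, -43 bp for p65, -51 bp for S2, -103.5 bp for S5 and -96 bp for p300. For H3K27ac they lay at 54.5 bp with ac4729 and 83.5 bp with ac647, and for Cbp at 18 bp.

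**Figure D4:**
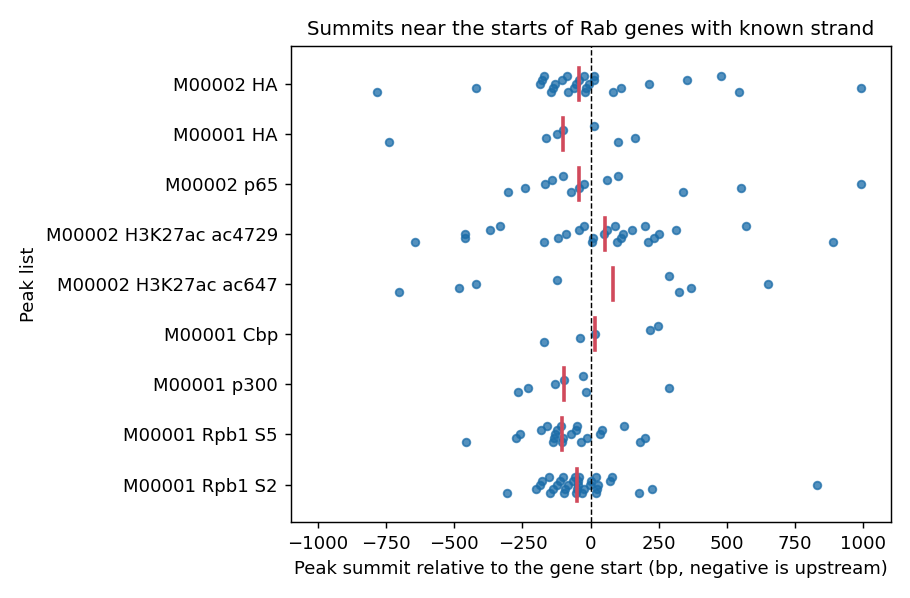
Position of peak summits relative to the gene start (x axis, bp, negative is upstream) for Rab genes with a known strand, by list (y axis); points are peaks and red bars medians. Summits of HA, p65, p300 and Rpb1 have medians between -103.5 and -42 bp, and those of H3K27ac lie downstream at 54.5 and 83.5 bp.

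Summits inside the genes, over 1 kb from both ends, were counted by gene. HA of M00002 had a summit there in 13 members (22.03%, 12.3 to 34.7), against 30.3% of the 19127 other genes scored this way, ac4729 in 10 (16.9%, 8.44 to 29.0), against 28.6%, and S2 in 10 (16.9%, 8.44 to 29.0), against 25.7%. IgG of M00002 had one in 2 members (3.39%, 0.413 to 11.7), against 9.32%. The share was lower in members in all 11 lists, but the intervals for HA and S2 held the background share, that for ac4729 ended just above it, and no test of the difference was made. Only the interval for Cbp ended below the background share, and narrowly. Cbp had a summit there in 1 member (1.69%, 0.0429 to 9.09), against 9.19%. Rab31, an endosomal and trans-Golgi Rab with a gene of 121027 bp, had the most internal peaks, 12, of which 5 were ac4729.

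The 2 SOCS box Rabs, which act as substrate receptors of ubiquitin ligases, had a median of 7 lists, the highest of the role groups. Rab40c (chr17:25882114-25919714, minus strand) had HA fold enrichment of 9.79 in M00002 and 5.29 in M00001, p65 3.67, ac4729 5.81, ac647 3.47, p300 5.93, S2 6.605 and S5 7.20, with no Cbp and no IgG. Its 8 lists were the most of any member, and its HA peaks were strung out upstream, with summits at -129, -421 and -783 bp in M00002 and -738 bp in M00001. Rab40b (chr11:121356121-121388251, minus strand) had HA 4.28 in M00002 and 4.48 in M00001, p65 3.94, ac647 8.06, S2 7.68 and S5 5.19, without ac4729, p300 or Cbp. Its ac647 peak lay at the other end of the gene, away from the rest.

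The exocytosis group held 12 genes, 5 with HA of M00002, 8 with S2 and 4 with no peak (other genes 25.3%, 40.7% and 46.6%). Rab3a (chr8:70754703-70758608, plus strand), the Rab of synaptic vesicle release, had HA 12.1 in M00002 and 4.39 in M00001, p65 5.17, ac4729 5.72, S2 7.60 and S5 5.32. All 6 of its peaks had their summit between -182 and -42 bp of the start, within the sequence printed above. Rab8a (chr8:72161200-72181366, plus strand), which carries cargo from the Golgi to the plasma membrane and the cilium, had HA 12.8 in M00002 and none in M00001, p65 4.46, ac4729 4.03, p300 4.55, S2 8.998 and S5 6.63. Rab26 (chr17:24529054-24533747), known from secretory granules, had HA 7.44 and 4.93, p65 5.84, ac4729 3.90, S2 7.44 and S5 9.04, the highest S5 of the family. The HA peaks of Rab26 lay 847 bp (M00002) and 867 bp (M00001) from the gene, just inside the 1 kb window, and its peaks are shared with Traf7.

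Among Golgi and early secretory Rabs, 9 of 12 had HA of M00002, 10 had S2, 8 had ac4729 and 0 had HA of M00001. Of the other genes, 25.3%, 40.7%, 32.4% and 10.2% had these peaks, so the 0 is near the background share. The HA list of M00001 held 9365 peaks and that of M00002 30680. Rab18, of lipid droplets and the endoplasmic reticulum, had HA 10.3, ac4729 4.70 and S2 7.73. Rab33b, of the Golgi and autophagosomes, and Rab43, of the Golgi, each had 7 lists. Rab33b had HA 3.58, ac4729 5.13, ac647 3.97, Cbp 3.09, p300 4.06, S2 5.71 and S5 5.08, with its p300 peak at the other end. Rab43 had HA 5.18, p65 4.51, ac4729 4.24, ac647 4.29, Cbp 3.42, S2 6.22 and S5 5.15, beside IgG 2.87. That IgG peak overlapped the S2 peak of Rab43 and no HA peak. Rab33a, a relative of Rab33b, had the highest S2 of the family, 9.48, with HA 5.23 and nothing else, both at the outer end of the gene and shared with Aifm1. Rab6a, of transport within the Golgi, had the highest Cbp of the family, 4.46, with HA 4.95, ac4729 4.93, S2 7.15 and S5 6.28.

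In the early endosome group, 4 of 6 genes had HA of M00002, 5 had S2 and 1 had no peak (other genes 25.3%, 40.7% and 46.6%). All 3 Rab5 genes, which drive fusion of early endosomes, had HA, ac4729, S2 and S5. Rab5b (chr10:128677170-128696284, minus strand) had HA 5.05 in M00002 and 3.98 in M00001, p65 3.77, ac4729 4.92, p300 4.81, S2 8.12 and S5 6.61, but its 2 HA peaks lay apart from each other, and its peaks are shared with Pmel. Rab5a had the highest ac647 of the family, 9.28, with HA 7.33, p65 5.11, ac4729 6.39, S2 7.25 and S5 5.78. Rab5c had HA 4.77, ac4729 4.80, S2 9.48 and S5 5.28, and Rab22a, of the same endosomes, had HA 5.91, p65 4.96, ac4729 5.27, S2 9.44 and S5 6.54.

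Recycling Rabs had HA of M00002 at 3 of 9 genes, S2 at 5 and no peak at 4 (other genes 25.3%, 40.7% and 46.6%). Rab11b, of recycling endosomes, had 7 lists, with HA 6.26 in M00002, p65 7.24, ac4729 6.11, ac647 4.47, p300 5.53, S2 5.22 and S5 6.27. Its paralog Rab11a had no HA, and ac4729 5.36, p300 4.06 and S2 5.09. Rab4b (chr7:27168433-27178883, minus strand), of fast recycling, had HA 5.40 in M00002 and 4.17 in M00001, Cbp 3.43, p300 4.42, S2 5.32 and S5 6.83, with neither p65 nor H3K27ac. Its peaks are shared with Mia.

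Of 3 ciliary Rabs, Rab34 (chr11:78188427-78192193, plus strand), needed for cilium formation, had HA 9.13 in M00002 and 3.88 in M00001, p65 6.76, ac4729 5.34, ac647 5.48, S2 3.16 and S5 3.95. Its strongest HA peak and its p65 peak had summits 991 and 993 bp downstream of the start, while the HA peak of M00001 lay at 163 bp. The other 2 HA peaks of M00002, with summits at -42 and 354 bp, overlapped that of M00001. Rab28 had HA in M00001 alone, 3.48, with S2 6.28 and the highest ac4729 of the family, 9.53. Rab23, known from Hedgehog signalling, had no peak.

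The highest HA of the family was at Rab42, a little studied member, but not at its start. Rab42 (chr4:132300438-132303382, minus strand) had HA 14.96 and p65 9.03 in M00002 at 1 site, chr4:132300005-132300118 for HA, which lies 320 bp beyond the end of the gene. S2, 4.54, lay at the start instead, and no H3K27ac list had a peak at the gene.

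Late endosomal, lysosomal and autophagy Rabs had a median of 0.5 lists, the lowest of the groups with more than 2 genes. HA of M00002 lay at 1 of 8, Rab9, which returns receptors from late endosomes to the Golgi, with HA 3.74, ac4729 4.03, S2 5.53 and S5 3.79. S2 lay at 4, and 4 had no peak. The shares of the other genes were 25.3% for HA of M00002, 40.7% for S2 and 46.6% for no peak. The counts for S2 and for no peak were thus near the background shares. Rab7, the main late endosome Rab, had ac4729 5.88, ac647 3.85, Cbp 3.09, S2 4.29 at the other end of the gene and no HA, and Rab24 and Rab20 had no HA either. Rab32 and Rab38, of lysosome-related organelles such as melanosomes, had no peak within 1 kb of an end. Rab32 had HA of M00002 and p65 inside the gene. The groups are small, hold 2 to 12 genes and were not tested against each other.

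**Figure D5:**
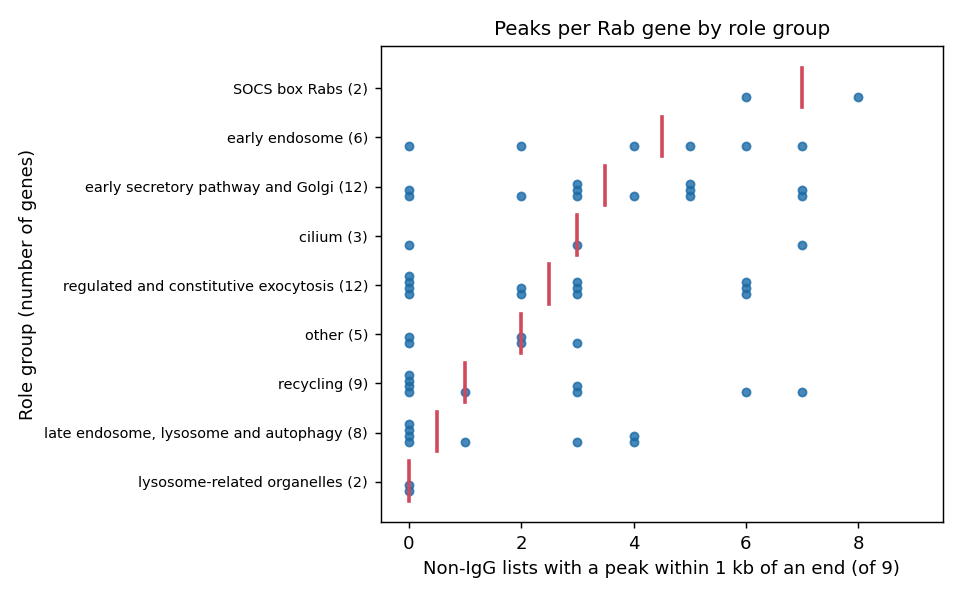
Number of lists with a peak within 1 kb of an end, of the 9 that are not IgG (x axis), for each Rab gene (points) by role group (y axis, with number of genes); red bars are medians. Medians run from 7 for the SOCS box Rabs to 0.5 for late endosome, lysosome and autophagy and 0 for lysosome-related organelles, and most groups hold genes at 0.

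Close relatives differed in how many lists they had. Of 14 sets of members that share a number, 31 genes in all, 5 sets ran from 0 lists to at least 4. Rab3a had 6 lists, Rab3d 2 (HA 2.99 in M00002 and S2 6.52), and Rab3b and Rab3c 0. Rab4b had 6 lists and Rab4a 0, Rab6a 5 and Rab6b 0, Rab7 4 and Rab7b 0, and Rab9 4 and Rab9b 0. In 7 sets every gene had at least 1 list, among them Rab1 (4 and 5), Rab2 (5 and 3), Rab5 (6, 7 and 4), Rab8 (6 and 2) and Rab40 (6 and 8). Rab27a and Rab27b, of secretory granules, both had 0.

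The 20 members without a peak in any list were Rab12, Rab15, Rab17, Rab19, Rab21, Rab23, Rab25, Rab27a, Rab27b, Rab29, Rab32, Rab38, Rab39b, Rab3b, Rab3c, Rab44, Rab4a, Rab6b, Rab7b and Rab9b. Of these, 9 had a list within 5 kb, 9 had a peak inside the gene and 7 had neither. Rab21, an endosomal Rab of integrin traffic, had peaks beyond the window. Its RefSeq promoter starts 1828 bp inside the gene, and within 1 kb of that start lay HA 9.42, ac4729 5.36, ac647 5.79 and S2 3.42. Rab17 likewise had HA 4.44 in M00002 at a start 2006 bp inside the gene. RefSeq starts over 1 kb inside were found for 7 members in all, and 4 of them, Rab15, Rab27a, Rab33a and Rab43, had no peak within 1 kb of such a start. That of Rab33a lies 5622 bp inside and is its only start in the table, and Rab13 had S2 4.92 at its own. Rab25, an epithelial Rab, had 8 lists within 5 kb, next to Mex3a.

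Just outside the 1 kb limit for HA of M00002 were Rab25 (1223 bp), Rab17 (1343 bp) and Rab31 (1373 bp), and just inside were Rab26 (847 bp) and Rab2a (487 bp). Another coding gene had an end within 1 kb of 15 members (25.4%) and of 25.1% of the other genes. A peak lay within 1 kb of an end of another coding gene as well at 10 of the 39 members with peaks, 9 of them with an end that near and Rab26 with a peak between more distant ends. The pairs beyond those named were Rab6a with Mrpl48, Rab1b with Klc2, Rab2b with Tox4, Rab13 with Rps27, Rab24 with Prelid1, Rab37 with Slc9a3r1 and Rab33a with Aifm1. At these genes the peak cannot be given to either gene.

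The Rab machinery, 100 genes for prenylation, exchange, GTPase activation and effectors, was counted in the same way. HA of M00002 lay at 30%, S5 at 23% and ac4729 at 36%, against 25.3%, 20.9% and 32.4% of the genes that are not Rab genes. S2 lay at 63%, against 40.7%, and 26% had no peak, against 46.6%. None of the 8 prenylation and recycling genes had HA in either line, and 5 had S2. HA lay at 10 of 33 exchange factor genes, 10 of 27 GTPase-activating protein genes and 10 of 32 effector genes. Examples were Rab3gap1 (HA 13.2 in M00002, 8.58 in M00001), an exchange factor complex subunit for Rab18, Rabgap1 (21.9 and 9.02) and Golga2 (20.0 and 7.22), which encodes a Golgi tether, each with a higher HA fold in M00001 than any Rab gene. Of 30 Arf family genes, 12 had HA of M00002, 23 S2 and 10 S5.

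Markers were used to check M00002 by H3K27ac, for which M00001 has no library. H3K27ac with both antibodies lay at 4 of 7 radial glia genes (Vim, Nes, Sox9 and Hes1) and at 2 of 3 genes fixed for this ependymoma (Ccnd1 and Rela, not L1cam). It lay at 0 of 4 neuron, 0 of 4 microglia and leukocyte, 0 of 3 endothelium and 0 of 3 oligodendrocyte genes, against 12.1% of the genes that are not Rab genes. With ac4729 alone, the list used through most of the text, a peak lay at 5 of the 7 radial glia genes and 2 of the 3 ependymoma genes. Peaks also lay at Csf1r, 1 of the 4 microglia and leukocyte genes, and at Mbp, 1 of the 3 oligodendrocyte genes, and at no neuron or endothelium gene. For ac4729 the share of the genes that are not Rab genes was 32.4%. In M00001, S5 lay at 2 of the 7 radial glia genes and 1 of the 3 ependymoma genes, against 20.9% of the genes that are not Rab genes. S5 lay at 0 of the neuron, microglia and leukocyte, endothelium and oligodendrocyte genes. The lists held between 1806 (IgG, M00001) and 30680 (HA, M00002) peaks, without read counts, so the depth of each library is unknown and a gene without a peak is not shown to lack the target.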

How the data were processed

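CUT&RUN peaks of 11 libraries, 1 per target and line, were deposited as 1 list per library. The build mm10, MACS2, deepTools, Bowtie2 2.3.5.1, FastQC and Trim Galore are named per the submitters' processing notes; settings, filters and the control of the calling were not given in the sources used here. Per peak, the deposited lists hold a score, a fold enrichment (a ratio at the summit), the −log10 of a p-value and of a q-value, and the summit's distance from the peak start, in the column order of MACS2, as the authors computed them. No deposited −log10 p lay below 3.00. For M00002, the names of the HA and p65 lists hold the mark 120 bp, which no source used here explains. The lists hold no read counts, so depth is unknown.

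A gene was called for a list when a peak overlapped, by at least 1 bp, 1 kb around either gene end of the RefSeq table of GRCm38.p6; strand and promoters came from RefSeq for 48 members. Shares carry exact Clopper-Pearson 95% intervals (scipy 1.17.1, pandas 2.3.3, Python 3.11.15). Overlaps were checked with planted peaks and with bedtools 2.31.1. With 1 library per target and line no test was made.

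The members, the gene lists and the role groups were chosen with earlier results of these data known. Named were all members with HA in both lines, those with the most lists, the top 3 per list, up to 3 per role group, members without peaks or with IgG, their paralogs, and genes sharing a peak. Others are named as members of a counted pattern. The machinery examples, the genes with an inner start, the ac4729 and S5 counts at markers and CCAAT were chosen after their values were seen.

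Alternatives varied the window, peak strength, IgG overlap, gene length, neighbours and membership.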

Additional observations from a re-analysis of the deposited data

How the results depend on the processing

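The values below are differences in percentage points, Rab genes minus other genes. Of 114 alternative values over 11 settings, 109 stayed within the exact interval of the reported share. With a −log10 q of at least 5, the difference for HA of M00002 moved from 18.8 to 3.54 (10 members), for HA of M00001 from 3.33 to -4.40 (0 members) and for HA in both lines from 2.87 to -4.13 (0 members). With the 2000 strongest peaks of each list, HA of M00002 turned to -0.948 (1 member) and Rpb1 S5 moved from 24.9 to 11.02. The cause was not tested. Over its alternatives Rpb1 S2 ran from 17.3 to 29.1 and p300 from 2.34 to 8.21, p65 from -2.60 to 9.06 and Cbp from -0.269 to 7.25, so the last pair has no settled sign. Counting HA among genes with S2 was chosen after seeing the data. No paired analysis was possible because each target had 1 library per line and no test was made. Read depth is unknown, which limits what the absence of a peak shows, and 11 members without a promoter entry have no strand.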
